A study of Mus musculus with 8 samples.

Results

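The 10 genes described here encode proteins of lytic cell death, in which a cell's membrane breaks and its contents leak out. They are Ripk1, Ripk3, Mlkl, Zbp1 and Casp8 of necroptosis, and Casp1, Casp4, Nlrp3, Pycard and Gsdmd of the inflammasome. They were taken as a fixed list of gene symbols, without use of their values, and all 10 were found among the 21705 gene names of the deposited expression table. RNA had been sequenced from mouse kidney cortex, the outer zone that holds the glomeruli and the proximal tubules. The 4 libraries of one group were labelled Sav1+/+ and vehicle-treated, and the 4 of the other Sav1-/- and tamoxifen-treated, all on a mixed strain background. Sav1 encodes the scaffold of the Hippo kinase cascade. The labels used here do not give the Cre driver, the cells in which Sav1 was deleted, the ages, or whether each library came from its own animal, so p-values measure the spread between libraries, which may in part be technical.

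Necroptosis runs through the kinases RIPK1 and RIPK3, which join by a shared interaction motif and lead to phosphorylation of the pseudokinase MLKL, the protein that breaks the plasma membrane. Caspase-8 cuts RIPK1 and RIPK3 and so holds the pathway back, while ZBP1 senses nucleic acids and can engage RIPK3 without RIPK1. In the inflammasome a sensor such as NLRP3 recruits the adaptor ASC, encoded by Pycard, and through it caspase-1, which matures interleukin 1 beta and interleukin 18. Caspase-1 and caspase-4 (also called caspase-11 in the mouse) cut gasdermin D, whose freed end forms pores. Both pathways are studied in kidney injury, in tubule cells as well as in macrophages.

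Each library held about 20500000 to 25000000 reads in the wild-type group and 15700000 to 20900000 in the Sav1-null group. Sav1 was at 1504, 1743, 959 and 1193 in wild-type replicates 1 to 4 and at 983, 914, 982 and 714 in the Sav1-null ones, with wild-type replicate 3 inside the Sav1-null range. Its fall (log2 fold change -0.56, limma adjusted p = 0.0220) was similar but not called without wild-type replicate 1 (-0.50, limma adjusted p = 0.0613) or 2 (-0.43, limma adjusted p = 0.0571), and was smaller with equal library totals (-0.18, limma adjusted p = 0.376). Xist, expressed in female cells, was at 9280 to 16095 in the Sav1-null libraries and at most 0.989 in the wild-type ones, while Y-linked Ddx3y was at 734 to 844 in the wild-type libraries and 0 in the Sav1-null ones. Genotype, treatment and sex-chromosome transcripts therefore cannot be told apart in any difference below. The names of the deposited columns end in the same set of sample numbers in both groups and carry a prefix only in the Sav1-null one. Whether the groups were prepared or sequenced apart was not tested. Proximal tubule markers summed to 435885 to 491326 and to 54484 to 150803 in the wild-type and Sav1-null groups. Umod, a marker of the thick ascending limb, was at 47971 to 49917 in the wild-type libraries. Its Sav1-null values were 52840, 45621, 59857 and 25262, in replicate order. It did not pass the test (log2 fold change -0.17, limma adjusted p = 0.556). Sav1-null replicate 4 stood apart. It had the lowest summed proximal tubule markers of its group and the highest summed neutrophil markers, 534 against 42.9 to 104 in the other 3 libraries. Wild-type replicates 2 and 3 carried more Havcr1, the tubule injury marker KIM-1, at 1099 and 665 against 23.6 and 15.5.

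Of the 10 genes, 8 rose in the Sav1-null group and 0 fell. Ripk1 and Casp8 were the 2 that did not pass the test. Of the 13677 tested genes, 43.9% were called higher, 25.2% lower and 69.1% in either direction, so a rise by itself was common. The median log2 fold change of the 10 was 2.41, beside 0.23 over all tested genes, and 6 of them were called with a log2 fold change of at least 2, as were 10.3% of tested genes. The 8 that rose had groups that did not overlap, which held in the higher direction for 41.0% of tested genes. All 10 passed the low-value filter, a mean of 10 over the 8 libraries. Ripk3, Casp1, Casp4 and Nlrp3 had a wild-type mean below 10 and passed it through the Sav1-null group alone. Values in a piece of cortex do not tell a larger number of expressing cells from more RNA in each.

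**Figure D1:**
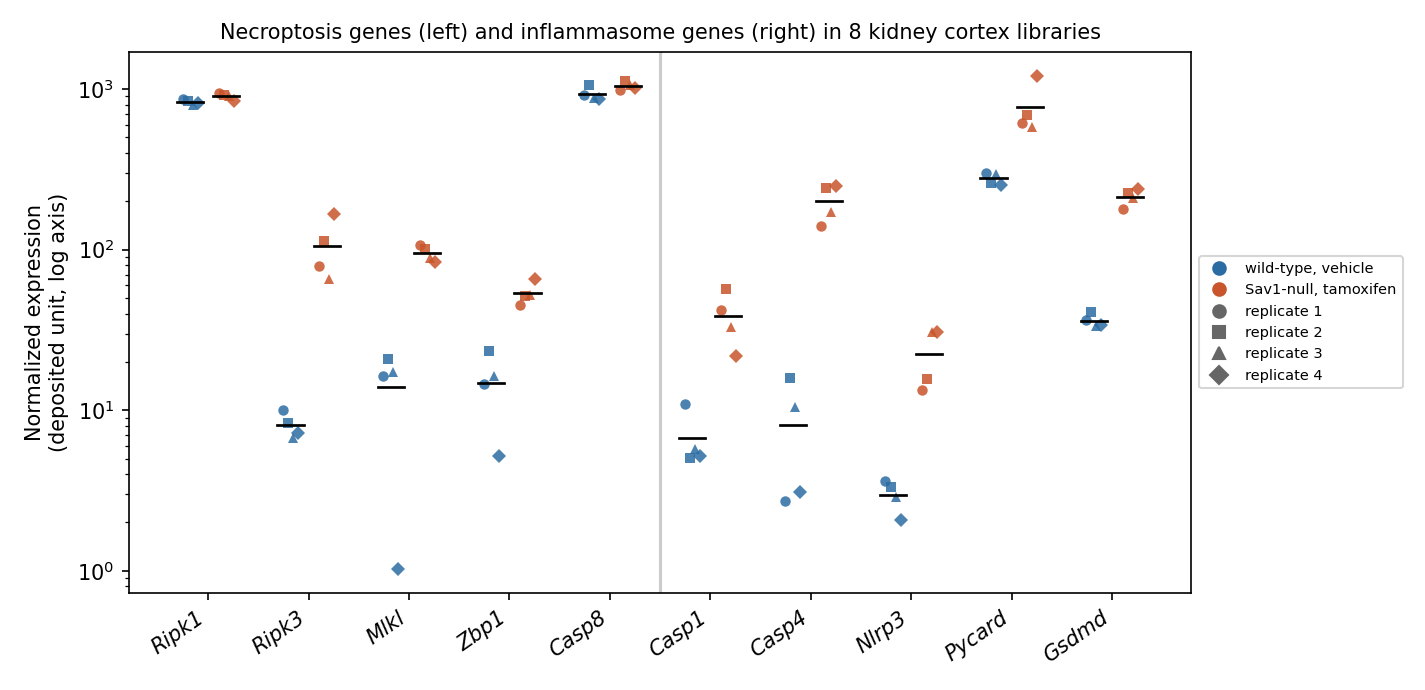
Normalized expression (deposited unit, log axis) of the 5 necroptosis genes and the 5 inflammasome genes in every library; blue points are wild-type and orange points Sav1-null libraries, symbols mark the replicate number and black bars the group mean. Ripk1 and Casp8 overlap between the groups near 1000, while the other 8 genes are separated.

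To show the start regions of the gene with the largest rise and of one that did not pass the test, the 250 bases before an annotated start are given for Casp4 (chr9:5308599-5308848, plus strand) and for the second listed start of Ripk1 (chr13:34002624-34002873, plus strand), 5′ to 3′, from RefSeq on GRCm38.p6, a later build than that of the expression table. Capitals mark strings that were searched on both strands.
Casp4: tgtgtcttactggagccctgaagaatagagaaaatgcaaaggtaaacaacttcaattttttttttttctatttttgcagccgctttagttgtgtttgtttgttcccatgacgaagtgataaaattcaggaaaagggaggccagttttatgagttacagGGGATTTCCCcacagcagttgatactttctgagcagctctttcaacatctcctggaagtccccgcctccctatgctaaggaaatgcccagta
Ripk1: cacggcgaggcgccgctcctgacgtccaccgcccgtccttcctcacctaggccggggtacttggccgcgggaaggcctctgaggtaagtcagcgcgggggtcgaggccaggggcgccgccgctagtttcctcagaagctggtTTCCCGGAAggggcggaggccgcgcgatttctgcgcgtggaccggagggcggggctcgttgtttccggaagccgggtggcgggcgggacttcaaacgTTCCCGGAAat
The capitals in Casp4 are a form of the kappa B string bound by NF-kB (GGGA, any base, TTCCC), 92 to 83 bases before the start, which was added to the search after this window had been seen and occurs in 0.320% of the 32851 promoter windows of that length. The capitals in Ripk1 are the string bound by STAT dimers (TTC, any 3 bases, GAA), present 2 times here and at least once in 7.02% of windows. RefSeq windows were found for 8 of the 10 genes. The others are Zbp1 and Gsdmd. Among the 11 windows of those 8, the interferon response string (GAAA, any 2 bases, GAAA, in 2.98% of all windows) and the other kappa B string (GGGA, any base, TTTCC, in 0.356%) did not occur, and the TEAD string GGAATG (12.6%) occurred once, before the first listed start of Ripk1. A match is a string of letters, not a measured binding site.

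RIPK1, the kinase that sits at the TNF receptor and decides between survival signalling and death, was encoded by a transcript that did not pass the test. Ripk1 was at 873, 844, 801 and 821 in the wild-type libraries and at 951, 912, 906 and 848 in the Sav1-null ones. The group means were 835 ± 31.1 and 904 ± 42.3 (SD, n = 4), 1.08-fold apart, and the ranges overlapped. The log2 fold change was 0.12 ± 0.07 (SE) with a limma adjusted p of 0.164 (exact permutation test, two-sided, p = 0.0571, where 0.0286 is the smallest that 4 against 4 allow). Casp8, the apoptotic caspase that restrains necroptosis, was at 913, 1064, 879 and 872 and at 988, 1129, 1067 and 1016. Its means were 932 ± 89.6 and 1050 ± 61.9, with a log2 fold change of 0.17 ± 0.09 (limma adjusted p = 0.0987, exact permutation p = 0.0857). Wild-type replicate 2 was the library that lay inside the Sav1-null range, and without it Casp8 was called higher (log2 fold change 0.24, limma adjusted p = 0.0263). With equal library totals both genes were called higher (0.50 and 0.56, limma adjusted p = 0.000113 and 0.000264), and with median-of-ratios size factors both turned below 0 without a call (-0.11 and -0.050). These scalings moved the median of all tested genes by 0.38 and -0.22. Some Ripk1 exons overlap those of Serpinb6a on the other strand and of a pseudogene in the GENCODE annotation, as do some of Pycard with a gene on the other strand, and no source used here says whether reads were counted by strand.

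The genes of the necroptosis executioner pair rose from a handful of reads. Ripk3, the kinase that phosphorylates MLKL, was at 9.98, 8.38, 6.70 and 7.22 in the wild-type libraries (35 reads in all) and at 78.9, 112, 65.6 and 167 in the Sav1-null ones (469 reads). Every Sav1-null library was above every wild-type one, and Sav1-null replicate 4 was the highest. The log2 fold change was 3.48 ± 0.31, or 11.2-fold (limma adjusted p = 1.14e-05), and 3.23 to 3.68 when each library was left out in turn. The fold was 5.40 under quantile normalization and 6.10 with a pseudocount of 10, and the call held in both. Mlkl, the membrane-breaking effector, was at 16.3, 20.9, 17.2 and 1.03 in the wild-type group and at 107, 102, 89.3 and 83.7 in the Sav1-null group. Wild-type replicate 4 held a single read, below the 18 to 25 reads of the other 3 libraries. Of 17 macrophage and dendritic cell genes 14 were also lowest of the wild-type group in that library, with a summed level of 1392 against 1746 to 2608 and the other 3 genes lowest in replicate 1, and the part of macrophages in the Mlkl value was not tested. Its rise was 8.81-fold (log2 fold change 3.14 ± 0.68, limma adjusted p = 0.00248), but 5.03-fold without that library (limma adjusted p = 3.29e-05) and 16.2-fold without wild-type replicates 2 and 3. It was called at 4.53-fold under quantile normalization and at 4.72-fold with a pseudocount of 10.

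Zbp1, the nucleic acid sensor that engages RIPK3, rose less. It was at 14.5, 23.5, 16.3 and 5.15 in wild-type and at 45.3, 51.8, 52.1 and 65.9 in Sav1-null libraries, with wild-type replicate 4 again the lowest of all. The means were 14.9 ± 7.53 and 53.8 ± 8.69, and the log2 fold change was 1.94 ± 0.40 (3.83-fold, limma adjusted p = 0.0018). Under quantile normalization the change was 0.84 and not called (limma adjusted p = 0.0733).

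Both inflammatory caspases rose. Casp1, which encodes the protease that matures interleukin 1 beta, was at 10.9, 5.03, 5.74 and 5.15 in the wild-type libraries (29 reads in all) and at 42.2, 56.7, 33.2 and 21.7 in the Sav1-null ones (176 reads). The groups did not overlap, and Sav1-null replicate 4 was the lowest of its group. The log2 fold change was 2.34 ± 0.36, or 5.05-fold (limma adjusted p = 0.000354), and it was called at 2.39-fold under quantile normalization and 2.82-fold with a pseudocount of 10. Casp4, which encodes the intracellular sensor of bacterial lipopolysaccharide, had the largest change of the 10. Its values were 2.72, 15.9, 10.5 and 3.09 in the wild-type group (36 reads) and 141, 243, 171 and 250 in the Sav1-null group (900 reads). The wild-type libraries split into a higher pair, replicates 2 and 3, and a lower pair, replicates 1 and 4, as they did for Havcr1. The rise was 26.7-fold (log2 fold change 4.74 ± 0.49, limma adjusted p = 2.91e-05), and 50.4-fold without replicates 2 and 3. It was 14.6-fold under quantile normalization and 11.9-fold with a pseudocount of 10, both called. On chromosome 9 the GENCODE annotation places Casp1, Casp4 and Casp12 side by side. Casp12, a caspase of the same family, was at 12.7, 14.2, 5.74 and 5.15 and at 201, 261, 155 and 168, a rise of 4.33 in log2 fold change (limma adjusted p = 6.15e-06). These genes are related in sequence, and RSEM divides reads that match several genes. All values of the 10 listed genes, Casp1 and Casp4 included, lay within 0.000557 read of a whole number of reads.

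The sensor and the adaptor of the NLRP3 inflammasome rose from different starting levels. Nlrp3 was at 3.63, 3.35, 2.87 and 2.06 in the wild-type libraries, 13 reads in all, and at 13.3, 15.6, 30.8 and 30.5 in the Sav1-null ones, 103 reads. Sav1-null replicates 3 and 4 had about the same value, above replicates 1 and 2. The log2 fold change was 2.49 ± 0.37, or 5.62-fold (limma adjusted p = 0.000276). It was called at 2.81-fold under quantile normalization and at 2.43-fold with a pseudocount of 10. Pycard, the gene of the adaptor ASC, was already well expressed in wild-type cortex, at 302, 261, 298 and 254, and reached 618, 692, 581 and 1204 in the Sav1-null group. Sav1-null replicate 4 was far above the rest of its group. Its rise was 2.66-fold (log2 fold change 1.41 ± 0.21, limma adjusted p = 0.000274) and 2.26-fold without that library.

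Gsdmd, the gene of the pore-forming gasdermin D, had the smallest standard error among the 8 that rose. It was at 36.3, 41.0, 33.5 and 34.0 in the wild-type libraries and at 180, 224, 210 and 239 in the Sav1-null ones. Spread was low in both groups, 9.51% and 11.9% of the mean. The log2 fold change was 2.52 ± 0.15, or 5.74-fold (limma adjusted p = 1.49e-06), and lay between 2.46 and 2.60 when each library was left out in turn. Under quantile normalization the rise was 3.16-fold. Each of the 8 genes that rose had an exact permutation p of 0.0286.

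**Figure D2:**
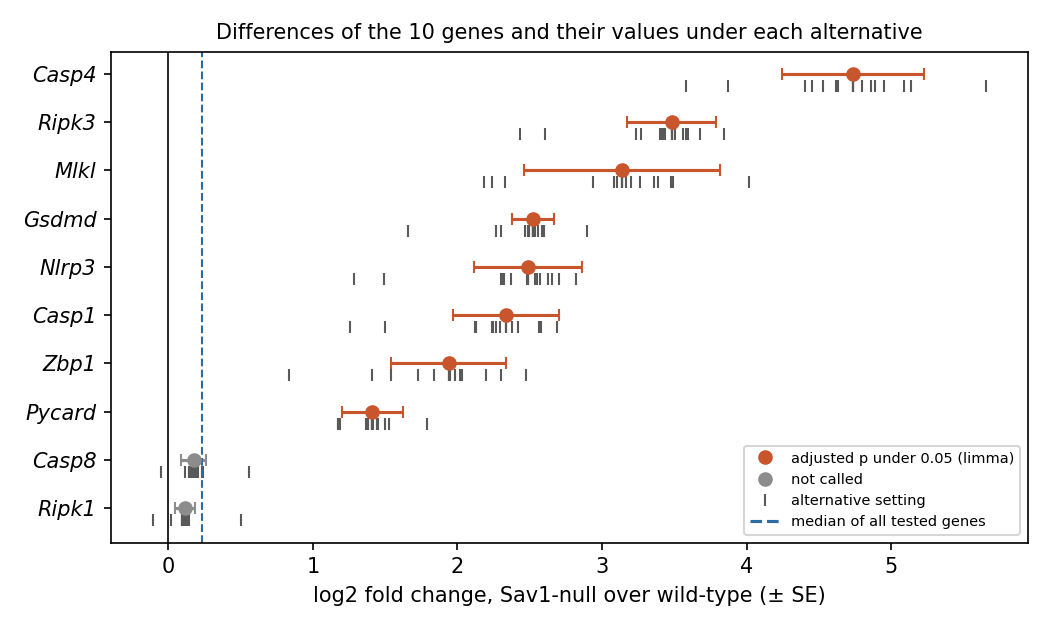
Log2 fold change (Sav1-null against wild-type, from log2 of the value plus 1) with its standard error for the 10 genes, ordered by size; orange points were called and grey ones not, ticks are the values under each alternative setting and the dashed line is the median of all tested genes at 0.23. Casp4 is highest at 4.74, and Ripk1 and Casp8 lie at 0.12 and 0.17.

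Per kilobase of transcript, the scale on which levels of different genes can be set side by side, the wild-type order was led by Casp8 (361 ± 34.7) and Ripk1 (129 ± 4.81), ahead of Pycard (73.3 ± 6.50) and Gsdmd (20.2 ± 1.92), with ranges that did not overlap. Zbp1, Mlkl, Casp4, Casp1 and Ripk3 followed between 7.46 and 4.26, each overlapping the next, and Nlrp3 was last at 0.741 ± 0.171. In the Sav1-null group Casp8 was still first (406 ± 24.0). Pycard (204 ± 76.4), Casp4 (140 ± 37.5), Ripk1 (140 ± 6.54) and Gsdmd (119 ± 14.1) came next, each overlapping its neighbour. They were followed by Ripk3 (56.0 ± 24.0), Mlkl (48.3 ± 5.45), Zbp1 (27.0 ± 4.37) and Casp1 (25.7 ± 9.88), of which Mlkl and Zbp1 did not overlap, and Nlrp3 stayed last (5.61 ± 2.34). Lengths were those of the longest principal GENCODE transcript. For Ripk1 principal transcripts run from 3266 to 6472 bases, and for Pycard other coding transcripts are much shorter. Shorter lengths would raise their levels per kilobase, so their places, and that of Casp8 as first, are not settled.

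The nearest profiles were sought among all tested genes for the 6 called genes with a mean of at least 50 in the Sav1-null group, as the root mean square difference of log2 values from the own wild-type mean over the 8 libraries. Gsdmd was nearest to Filip1l (0.0981) and Pycard to Cbx6 (0.101). Zbp1 was nearest to Zfp57 (0.191), Ripk3 to Mex3a (0.216) and Mlkl to Fam64a (0.304). For Casp4 the nearest was the complement gene C3 (0.276), which went from 1220 ± 1097 to 28530 ± 6477.

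Upstream of RIPK1, the ligand gene Tnf rose, and the genes that control necroptosis were called higher about as often as genes in general. Of 29 tested, 13 rose (44.8%) and 3 fell (10.3%), beside 43.9% and 25.2% of all tested genes, and their median log2 fold change was 0.22, close to that of all tested genes. The number that fell was 5 without Sav1-null replicate 4, 9 with median-of-ratios size factors, 6 under quantile normalization and 0 when library totals were made equal. Tnf, the ligand that starts the pathway, was at 0, 4.19, 1.91 and 0 in the wild-type libraries and at 38.3, 72.3, 37.9 and 159 in the Sav1-null ones (log2 fold change 5.05 ± 0.66, limma adjusted p = 0.000119). Wild-type Tnf rested on 7 reads, and without wild-type replicates 2 and 3 its log2 fold change was 6.02. Sav1-null replicate 4, the library with the highest neutrophil sum, was again the highest, and the part of those cells was not tested.

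The 3 genes of this list with the smallest p among those that rose all encode enzymes acting on ubiquitin. Birc3, the gene of the ubiquitin ligase cIAP2, rose from 150 ± 36.8 to 1493 ± 146 (10.1-fold, limma adjusted p = 8.5e-07), and Birc2, which encodes cIAP1, from 663 ± 87.9 to 2121 ± 233 (3.20-fold). Tnfaip3, which encodes the ubiquitin editor A20, rose 6.37-fold, from 158 ± 36.2 to 995 ± 89.3. Other ubiquitin-related genes of the list differed in their calls. Rnf31 of the linear ubiquitin ligase (log2 fold change 0.77, limma adjusted p = 0.00177) and Traf2 (0.99, limma adjusted p = 0.000241) were called higher. Rbck1 (0.16) and Sharpin (-0.18) of the same ligase and the deubiquitinase gene Cyld (-0.21) did not pass the test. Their limma adjusted p were 0.343, 0.200 and 0.189. The 3 falls were in Fadd, the adaptor that brings in caspase-8 (448 ± 15.2 to 365 ± 17.9, log2 fold change -0.29, limma adjusted p = 0.00838), in Spata2, which links the deubiquitinase CYLD to its complex (-0.42), and in the mitochondrial phosphatase gene Pgam5 (-0.41). None of the 3 calls held with equal library totals, where Fadd turned to 0.09. Without wild-type replicates 2 and 3 the change in Fadd was as large (-0.29) but not called (limma adjusted p = 0.0609). Cflar, which encodes the caspase-8 partner cFLIP, was at 2927 ± 267 and 2548 ± 438 and did not pass the test (log2 fold change -0.21, limma adjusted p = 0.173). It was called lower with median-of-ratios size factors (-0.44, limma adjusted p = 0.0108) and was at 0.17 with equal totals.

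Other inflammasome genes moved both ways. Of 22 tested sensors, adaptors and regulators 15 rose (68.2%) and 5 fell (22.7%), beside 43.9% and 25.2% of all tested genes. Their median log2 fold change was 1.89, but 0.90 under quantile normalization, 1.14 with a mean of at least 50 and 1.26 with a pseudocount of 10. The number that fell was 3 without Sav1-null replicate 4 or without wild-type replicate 1, 2 or 4, and 2 with equal totals. Of those that rose, Nlrp1b, Nlrp10, Naip1, Naip6, Aim2 and Casp12 had wild-type means below 10 and passed the filter through the Sav1-null group alone. With a mean of at least 50 as filter 9 of 16 tested rose and 5 fell, beside 4996 and 3303 of 11938 over all genes. Panx1, the gene of a membrane channel opened by caspases, rose from 12.5 ± 3.38 to 161 ± 41.1 and Txnip, whose product binds NLRP3, rose 3.68-fold (6355 ± 527 to 23622 ± 4062). Aim2, the gene of the cytosolic DNA sensor, rose from 3.13 ± 2.13 to 22.5 ± 7.26 (6.11-fold, limma adjusted p = 0.000608). In the other direction, the sensor gene Nlrp6 was at 2692, 2555, 2643 and 2331 in wild-type and at 825, 708, 802 and 389 in Sav1-null libraries, a 3.90-fold fall (log2 fold change -1.96, limma adjusted p = 3.94e-05). Nlrc4, which encodes the sensor of bacterial flagellin with NAIP proteins, fell 4.77-fold, from 119 ± 38.5 to 24.8 ± 9.94 (limma adjusted p = 0.00024). Nek7, which encodes a kinase that binds NLRP3, fell from 2215 ± 233 to 1557 ± 291 (log2 fold change -0.52, limma adjusted p = 0.0095), a call not made with equal totals (-0.14).

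Of the 2 cytokine genes whose products caspase-1 matures, Il1b passed the test and Il18 did not. Il1b was at 9.98, 15.9, 19.1 and 14.4 in the wild-type libraries and at 62.5, 46.9, 42.7 and 225 in the Sav1-null ones. It rose 4.78-fold (limma adjusted p = 0.00274), a call lost under quantile normalization (1.17 on the log2 scale, limma adjusted p = 0.0890), and the high value belonged to Sav1-null replicate 4, the library with the highest neutrophil sum, whose part was not tested. Il18, which kidney tubules also make, was at 86.0 ± 14.1 and 60.3 ± 17.7 and did not pass the test (log2 fold change -0.53, limma adjusted p = 0.0660). It was called lower with median-of-ratios size factors (-0.76), under quantile normalization (-1.37), with the replicate block (limma adjusted p = 0.0457), and without Sav1-null replicate 2 (0.0253) or wild-type replicate 3 (0.0392).

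Receptor genes of this family rose. Of the 12 tested genes of the interleukin 1 and 18 axis, 10 rose (83.3%) and 0 fell (1 fell in the 5 settings named for Il18), beside 43.9% and 25.2% of all tested genes. Among them were the receptor genes Il18r1 (7.36 ± 1.88 to 271 ± 149, 29.5-fold), Il1rl1, which encodes the interleukin 33 receptor (14.6-fold), and Il1r1 (5.99-fold), with Il33 itself at 3.07-fold (66.7 ± 14.9 to 210 ± 58.5). Il1a was below the filter, at no more than 1.07 in the wild-type libraries and at 1.58 to 13.2 in the Sav1-null ones. Il1r2, Il18r1, Il18rap and Il1rl1 had wild-type means below 10 and passed the filter through the Sav1-null group alone. With a mean of at least 50 as filter 7 of 9 tested genes of the axis rose, beside 4996 of 11938 over all genes.

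Few other gasdermins were seen. Of 10 further genes of gasdermins and membrane rupture in the table, 5 had no read in any library and 2 were tested. Dfna5, which encodes gasdermin E, cut by caspase-3, had means of 378 and 349 and did not pass the test (log2 fold change -0.12, limma adjusted p = 0.582). Its sign turned, with no call, with equal totals (0.26), without Sav1-null replicate 4 (0.0029) and without wild-type replicates 2 and 3 (0.04). Ninj1, the gene of the protein that ruptures the membrane after pores have formed, was at 2157, 1977, 2391 and 2537 in the wild-type libraries and at 1599, 1632, 1466 and 1820 in the Sav1-null ones. Its fall was 1.39-fold (limma adjusted p = 0.00214), a call not made with equal totals (log2 fold change -0.09). ESCRT-III is the machinery that reseals membranes opened by MLKL and gasdermin D. Of 15 genes of ESCRT-III and its partners, such as Vps4a and Tsg101, 5 rose (33.3%) and 3 fell (20%), shares at or below those of 43.9% and 25.2% among all tested genes, with a median of 0.06. The number that fell was 5 without Sav1-null replicate 4 and 7 with median-of-ratios size factors, while equal totals gave 11 that rose and 1 that fell. Chmp4c rose 1.90-fold, from 259 ± 20.9 to 496 ± 67.1, and Chmp6 fell 1.91-fold, from 2300 ± 122 to 1212 ± 197 (limma adjusted p = 0.000119 and 6.19e-05).

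**Figure D3:**
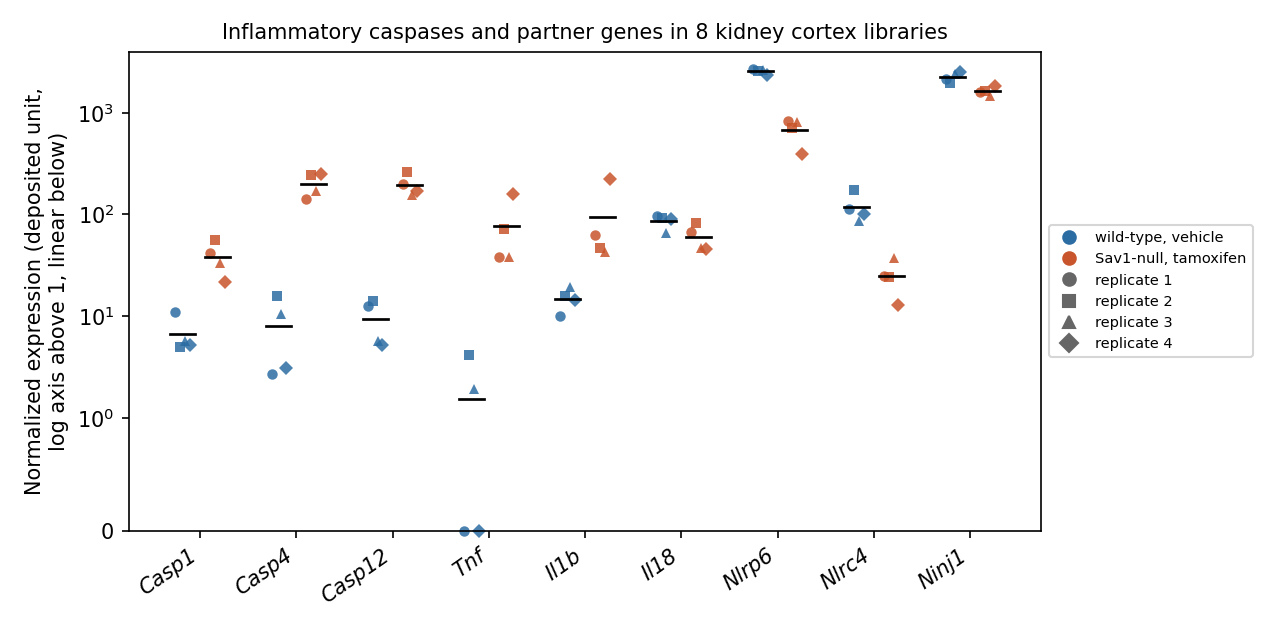
Normalized expression (deposited unit, log axis above 1 and linear below) of inflammatory caspases, cytokines, 2 sensors and Ninj1 in every library; blue points are wild-type, orange points Sav1-null, symbols the replicate number and black bars group means. Casp4 and Casp12 rise from wild-type means of 8.06 and 9.46 to 201 and 196, while Nlrp6 and Nlrc4 fall.

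Interferon-stimulated genes, a class to which Zbp1, Mlkl and Casp4 also belong, moved in the same direction. Of 24 tested, 23 rose (95.8%) and 0 fell, beside 43.9% and 25.2% of all tested genes. Their median log2 fold change was 2.09, and 1.299 under quantile normalization, where 1 of them was called lower. Mx1 and Mx2 had wild-type means below 10 and passed the filter through the Sav1-null group alone. With a mean of at least 50 as filter 20 of 21 tested rose, beside 4996 of 11938 over all genes. The transcription factor genes Irf1 and Irf9 rose 6.92-fold and 3.82-fold and Ifit3 5.10-fold (limma adjusted p = 5.69e-06, 6.65e-06 and 3.32e-06).

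Markers of leukocytes, which express inflammasome genes at high levels, moved with the 8 genes. Over all tested genes 43.9% were called higher, with a median log2 fold change of 0.23. All 16 tested macrophage and dendritic cell markers rose, with a median log2 fold change of 3.05. Their summed level ran from 1392 to 2608 in wild-type and from 10463 to 14153 in Sav1-null libraries. Among them the integrin gene Itgam rose 18.7-fold, Itgax 10.8-fold and the complement gene C1qa 9.07-fold. No gene of that list was at 0 throughout the wild-type group. All 8 pan-leukocyte markers rose as well (median 2.37, sums of 1219 to 1468 against 4022 to 5162), among them Laptm5 (5.24-fold), and so did all 7 tested lymphocyte markers (median 2.52, but 1.46 without the low-value filter and 1.27 with a pseudocount of 10, sums of 85.4 to 90.7 against 308 to 384). Of the lymphocyte markers Cd3d, Cd3e, Cd3g and Cd4 had wild-type means below 10 and passed the filter through the Sav1-null group alone. Of 11 neutrophil markers 4 were tested and 2, Csf3r and Cxcr2, were called higher. All 4 passed the filter in that way too. The call of Cxcr2 was lost under quantile normalization, with a pseudocount of 10 and without wild-type replicates 2 and 3. Elane and Camp had no read in any library, and the sums were 7.22 to 27.2 against 42.9 to 534. The part of these cells in the rises of the 8 genes was not tested.

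**Figure D4:**
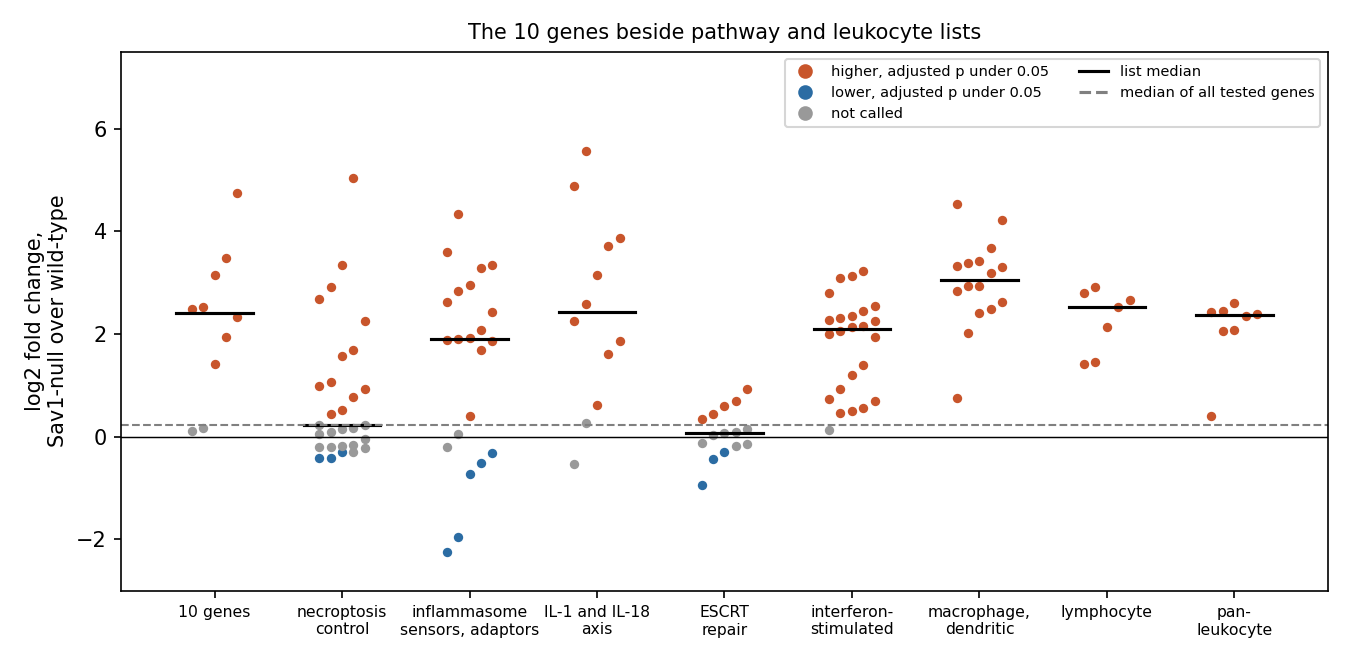
Log2 fold changes (Sav1-null over wild-type) of the 10 genes beside related pathway lists and leukocyte marker lists; each point is a tested gene, orange where called higher, blue where called lower and grey where not called, with the list median as a black bar and the median of all tested genes as a dashed line. The 10 genes have a median of 2.41, the macrophage list 3.05 and the genes that control necroptosis 0.22.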

How the data were processed

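Expression was compared between 4 wild-type, vehicle-treated and 4 Sav1-null, tamoxifen-treated kidney cortex libraries, grouped by their titles. The deposited values are a normalized signal per gene. Picard 1.64, SAMtools, RSEM and mm9 are named in the submitters' processing notes. The sources used here give no aligner, annotation or strand setting. In every library the 75th percentile of the values above 0 was near 1000. One read was worth 0.781 to 1.03, read from the spacing of low values, of which 92.7% to 93.3% were whole reads within 0.02, too few for a count model. Read numbers given here come from that spacing.

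Genes with a mean of at least 10 were tested with limma 3.58.1 in R 4.3.3 (intensity trend, 6 residual degrees of freedom) on log2(value + 1), which understates changes of low genes. P-values were adjusted by Benjamini-Hochberg over all 13677 tested genes and called under 0.05. Folds are antilogs of the log2 fold change, and errors are SD unless named SE. The fit was also run on simulated data in which a small share of genes was raised. That setting has far fewer changes than these data, so it does not test the calls made here. Two-sided exact permutation tests over 70 assignments were added for the 10 genes. Alternatives were pseudocounts of 0.5 and 10, a mean of at least 50 or no filter, 3 rescalings, no trend, a replicate block, each library left out, and both wild-type libraries highest in Havcr1 left out. The genes, lists and tests were chosen with earlier results of these data known. Named were the 10 genes, Sav1, from each list up to 3 called genes with the smallest p in each direction, 12 partner genes whatever their result, and the nearest profiles. Umod, Tsg101, Rbck1, Sharpin, Rnf31, Traf2 and Cyld were chosen after their values were seen. So were genes named only for a wild-type mean below 10. Xist, Ddx3y and Havcr1 came from the earlier results. Replicate libraries differed by more than sampling noise (at least 12.9 times, as chi-square over its degrees of freedom). Promoter strings came from RefSeq on GRCm38.p6, and gene lengths and overlaps from GENCODE M21.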

Additional observations from a re-analysis of the deposited data

Results flagged for a closer look

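A library was marked where its gap to the nearest of the other three of its group took up most of the group's range. Of 128 groups of 4 examined 8 were marked, and chance marks about 1 in 20. Among the 10 genes this was Casp1 in wild-type replicate 1, at 10.9 against 5.03 to 5.74. Sav1-null replicate 4 was the highest for Il1b (225), Csf3r (147) and Cxcr2 (66.9) and the lowest for Il1rl1 (55.1). Csf3r and Cxcr2 are neutrophil receptor genes and had group means of 62.0 and 22.0. Wild-type replicate 2 was the highest of its group for Birc2 (794) and Chmp2b (1706), and wild-type replicate 3 for Il33 (89.0).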

How the results depend on the processing

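Of the 10 genes, 8 were called higher with the deposited scaling, 9 without wild-type replicate 2 and 8 without each other library. With a mean of at least 50 as filter 5 of 7 tested were called, 7 of 10 under quantile normalization and 10 when totals were made equal. Over all genes 4996 of 11938 tested were called higher with that filter, and 8674 of 13677 with equal totals. With median-of-ratios size factors Ripk1 and Casp8 turned to -0.11 and -0.0501. Of all genes 5510 to 6363 were called higher and 3152 to 3629 lower without 1 library, against 6002 and 3452 over all. With equal totals 1946 genes were called lower, and the share of calls that were higher was 81.7% in place of 63.5%, 49.9% with median-of-ratios size factors and 48.8% under quantile normalization. Equal totals also gave necroptosis control 0 lower, inflammasome genes 2 lower, gasdermins 0 lower, and ESCRT 11 higher and 1 lower. A mean of at least 50 left 9 of 16 tested inflammasome genes higher. Without a filter 3 inflammasome genes were lower and 1 gasdermin list gene higher. Median-of-ratios size factors gave 9 necroptosis control genes, 1 cytokine axis gene and 7 ESCRT genes lower, and quantile normalization 6, 1 cytokine axis gene and 1 interferon-stimulated gene. Without 1 library the genes called lower numbered 3 to 5 for necroptosis control, 3 to 6 for inflammasome genes, 0 to 1 for the cytokine axis and 3 to 5 for ESCRT. Of the 8 called genes, 7 changed their fold by over 1.5 times under quantile normalization and 5 with a pseudocount of 10, each towards a smaller fold. Among 50 other called genes, named by the rule given above and not as nearest profiles, these numbers were 21, of which 19 were nearer to no change, and 12. The cause of these changes was not tested. With the replicate number as a block 8 of the 10 genes were called and 1 cytokine axis gene, Il18, was called lower. Correlations of deviations between same-numbered libraries ran from -0.17 to 0.14, and 4 of 8 libraries correlated best with their own number. So few libraries cannot settle whether the numbers pair them. Wild-type means of Nlrp3, Casp1, Ripk3 and Casp4 rested on 13 to 36 reads, which limits their folds.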
